A study of Mus musculus with 3 samples.

Results

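The Fc receptor genes Fcgr1, Fcgr2b, Fcgr3, Fcgr4, Fcer1g, Fcgrt and Fcrl1 were followed by taking the rows with these 7 symbols among the 50262 genes of a single-cell count table and counting their unique molecular identifiers (UMIs, each 1 captured mRNA) by tumor stage and by marker-defined class of CD45+ cells; levels are given as CPM, the UMIs of a gene over all UMIs of the same cells, scaled to a common total. The tumors arose in the brains of adult mice of mixed background that carried a conditional human EGFR transgene, Cdkn2a -/- and a conditional luciferase reporter among their alleles, after stereotactic injection of a lentivirus that delivers TGFa and iCre, so the host kept its own immune cells while recombination took place in the infected brain cells. Tumors labelled early, medium and large (called late here) by bioluminescence were dissociated, sorted into viable CD45+ and CD45- cells and sequenced by inDrop, a droplet method. The library annotation gives 1 tumor number per stage, carried by 4 libraries per sort over 3 sequencing runs; these libraries were taken as repeats of 1 tumor sample, since nothing in the annotation says that they came from separate animals. At the planned number of cells, the study's methods give 4 libraries per sample, the number found here per tumor number and sort. They also count several early and several late tumor samples, so libraries of a stage may still come from different animals. The number of samples in every test rests on taking the libraries as repeats. Agreement between libraries of a stage therefore does not replicate the stage. Per the labels and methods, cells of 2 animals were pooled where cells were few, early tumors included. All groups shared the genotype and the virus, stages were compared as single samples, and no tumor-free brain was analysed here.

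Fc receptors bind the constant part of antibodies and couple immunoglobulin to the cell. Fcgr1, Fcgr3 and Fcgr4 encode activating receptors for IgG, which signal through the common gamma chain encoded by Fcer1g, whereas Fcgr2b encodes the inhibitory IgG receptor, which recruits the phosphatase SHIP1 (Inpp5d). Fcgrt encodes the neonatal Fc receptor, which rescues IgG and albumin from degradation inside cells, and Fcrl1 encodes an Fc receptor-like protein of B cells. In the brain the IgG receptors of the Fcgr family are known mainly from microglia and macrophages, and the neonatal receptor from vessel endothelium and choroid plexus.

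The CD45+ libraries kept 11185 cells (5091 early, 3983 medium and 2111 late) and the CD45- libraries 6596. Libraries differed widely in yield: CD45+ libraries held 17 to 1751 kept cells with a median of 1746 to 3629 UMIs per cell, and the lowest yields were those of early and late CD45+ libraries of the first run. Ptprc, which encodes CD45, lay between 184 and 289 CPM in the CD45+ libraries and between 2.55 and 25.7 in the CD45- libraries, without overlap between the sorts. Of 18335 distinct cell barcodes, 2117 occurred in at least 2 libraries, and 1498 cells shared a barcode with another library of the same run. The classes were named from markers, and the microglia-like class had 10 of 10 markers, the macrophage or monocyte-like class 8 of 12 and the border or perivascular macrophage-like class 10 of 10 at least 2-fold above the other CD45+ cells.

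Fcgr2b (chr1:170958617-170976547, minus strand), Fcgr4 (chr1:171018920-171029761, plus strand), Fcgr3 (chr1:171051174-171064935, minus strand) and Fcer1g (chr1:171229572-171234365, minus strand) lie within 276 kb of chromosome 1 in GRCm38. Fcgr1 (chr3:96282909-96293969, minus strand) and Fcrl1 (chr3:87376387-87402934, plus strand) are on chromosome 3, and Fcgrt (chr7:45092990-45103851, minus strand) is on chromosome 7. The 250 bases upstream of the RefSeq start (GRCm38.p6) are shown for Fcgr1 and Fcgr3, whose levels were the most alike of any pair of members, and for Fcgr4, which had the largest ratio between stages in microglia-like cells. They are written 5′ to 3′ on the strand of the gene, and capitals mark GAGGAA, a core bound by Ets factors such as PU.1, here always read as its complement TTCCTC, and TTCNNNGAA, the palindrome bound by STAT factors.
Fcgr1 (chr3:96293970-96294219, minus strand): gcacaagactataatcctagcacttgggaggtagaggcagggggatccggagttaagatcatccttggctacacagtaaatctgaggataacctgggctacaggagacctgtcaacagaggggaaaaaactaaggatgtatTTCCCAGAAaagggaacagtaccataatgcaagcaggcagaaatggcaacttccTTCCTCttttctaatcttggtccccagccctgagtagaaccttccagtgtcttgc
Fcgr3 (chr1:171059404-171059653, minus strand): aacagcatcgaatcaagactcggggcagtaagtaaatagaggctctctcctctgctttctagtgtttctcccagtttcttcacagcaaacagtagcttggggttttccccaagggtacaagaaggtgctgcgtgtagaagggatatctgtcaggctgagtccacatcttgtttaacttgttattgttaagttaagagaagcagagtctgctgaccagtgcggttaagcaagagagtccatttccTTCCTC
Fcgr4 (chr1:171018676-171018925, plus strand): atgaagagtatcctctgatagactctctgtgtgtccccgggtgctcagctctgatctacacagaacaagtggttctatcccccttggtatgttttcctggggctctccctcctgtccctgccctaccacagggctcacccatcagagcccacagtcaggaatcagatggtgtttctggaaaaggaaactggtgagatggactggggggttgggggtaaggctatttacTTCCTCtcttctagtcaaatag
Counted from the start site, with -1 the base before it, the hexamer began at -55 in Fcgr1, at -6 in Fcgr3 (at -15 from its other annotated start) and at -22 in Fcgr4, and the STAT palindrome at -109 in Fcgr1, without overlap between the motifs. On either strand, GAGGAA was present in 28.3% of the 32851 RefSeq promoters, taken like the members' from 250 bases before to 50 after the start, and TTCNNNGAA in 8.30%. Of the members, 4 of 7 held the hexamer (Fcrl1 besides these 3) and 1 of 7 the palindrome. Of the bases shown, 27 of Fcgr3 and 6 of Fcgr4 lie in annotated exons. A match describes these letters only.

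To ask which sort carried the receptors, UMIs were summed per tumor sample and sort. Fcer1g, the shared signalling chain, stood at 1164 CPM in early, 992 in medium and 1108 in late CD45+ cells, against 87.3, 47.3 and 6.14 in CD45- cells. Fcgr3, the low-affinity activating receptor, stood at 933, 464 and 764 against 72.7, 38.6 and 7.18. Fcgr1, the high-affinity receptor, stood at 230.5, 152 and 156 against 19.1, 14.3 and 2.93. In none of the 3 did the sorts overlap, and the CD45- level of each was lowest in the late sample.

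The inhibitory receptor had another order of stages in the CD45- cells. Fcgr2b stood at 203, 134 and 331 CPM in early, medium and late CD45+ cells and at 18.3, 22.9 and 60.2 in CD45- cells, where its late level was the highest. Fcgr4, which binds IgG2 subclasses, stood at 27.2, 69.5 and 42.0 against 0.741, 5.18 and 0.283. Fcgrt had the smallest gap between sorts, with 76.5, 64.8 and 108 against 31.7, 43.6 and 28.6. Fcrl1 was near the floor, with 40 UMIs in all CD45+ cells and 0 in CD45- cells, where 3 UMIs would be its limit.

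In edgeR's quasi-likelihood test with the tumor sample as a block (n = 3 per sort, two-sided, Benjamini-Hochberg over 18433 genes), 6 of 6 tested members were higher in CD45+ cells, beside 20.4% of all genes tested (46.1% in either direction). Fcer1g was 43.4-fold higher (log2 fold change 5.44 ± 0.81 SE, adjusted p = 0.0019), Fcgr4 39.4-fold (5.30 ± 0.54, adjusted p = 0.00043) and Fcgr3 30.3-fold (4.92 ± 0.71, adjusted p = 0.0016). Fcgr1 was 22.9-fold higher (4.52 ± 0.49, adjusted p = 0.00053), Fcgr2b 9.09-fold (3.18 ± 0.27, adjusted p = 0.00018) and Fcgrt 3.07-fold (1.62 ± 0.27, adjusted p = 0.0026). Fcrl1 did not pass the filter on low counts. Fcgr4 rested on 6, 34 and 3 UMIs in early, medium and late CD45- cells. The members are largely genes of leukocytes and were chosen with earlier results of these data known. Their count in this comparison is therefore a description and not independent support. A sum over a sort cannot tell fewer expressing cells from less RNA per cell.

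The genes that act with the receptors were counted in the same comparison. Of all genes tested, 20.4% were higher in CD45+ cells and 25.7% lower. Of 20 activating signal genes tested, 16 were higher in CD45+ cells and 1 lower. The 3 largest folds were those of Fgr (a Src-family kinase, 55.8-fold), Lat2 (an adaptor, 47.9-fold) and Tyrobp (DAP12, 45.1-fold). Of 8 inhibitory signal genes, 6 were higher and 1 lower, led by Dok2 (68.6-fold), the phosphatase Ptpn6 (38.5-fold) and Inpp5d (26.7-fold). The median log2 fold change was 4.72 for the members, 4.62 for the activating and 2.43 for the inhibitory signal genes, against -0.04 for all genes tested. Of 6 other Fc receptor or receptor-like genes tested, 5 were higher. The largest folds were those of Fcrla (510-fold), Fcrls (32.8-fold), a microglial scavenger-type relative, and B2m (6.33-fold). The ligands themselves were unevenly spread: of the IgG heavy chains, Ighg2b stood at 0.833, 386 and 2.23 CPM in early, medium and late CD45+ cells and Ighg2c at 0, 388 and 0.372. Ighg3 stood at 0, 0.206 and 109 and Ighg1 at 0, 65.5 and 59.6. The 84 medium plasma cell-like cells held 99.5% of the Ighg1, 91.8% of the Ighg2c and 63.2% of the Ighg2b UMIs of that stage, whereas 0 of the 588 late Ighg3 UMIs were in the 6 late plasma cell-like cells.

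Among CD45+ classes, the receptors were highest in different classes. Fcgr1 and Fcgr3 were highest in microglia-like cells, Fcer1g and Fcgr2b in border or perivascular macrophage-like cells together with Fcgrt, and Fcgr4 in macrophage or monocyte-like cells. Fcrl1 was rare in all of them.

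**Figure D1:**
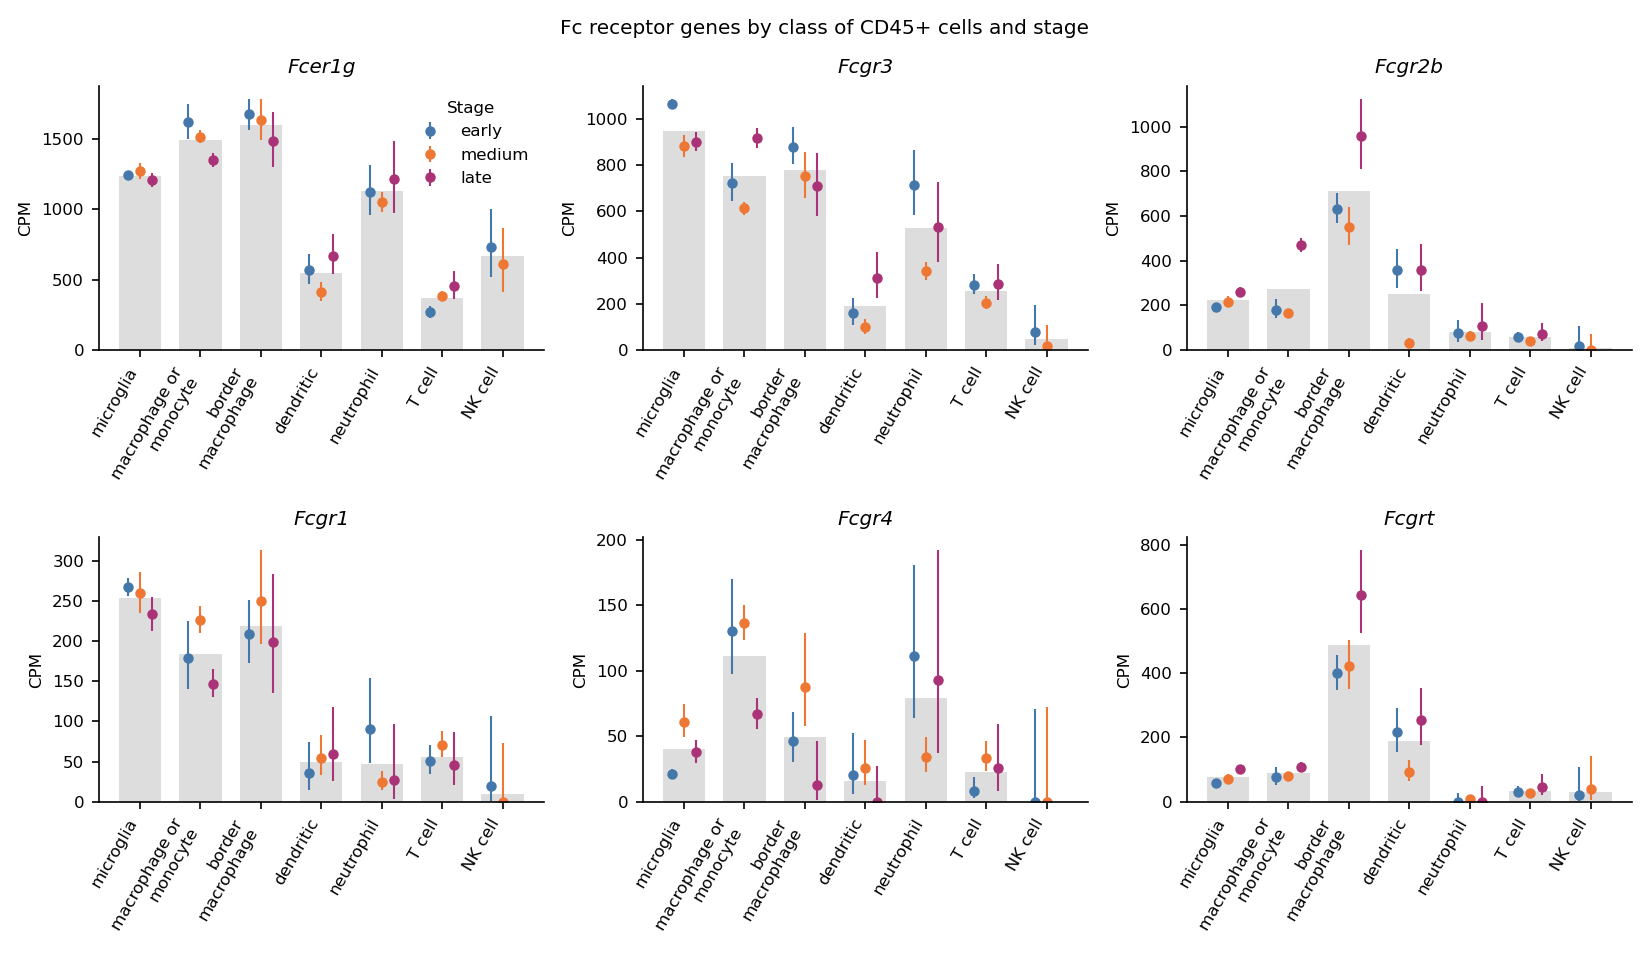
Level of 6 member genes (CPM, linear axes from 0) in 7 classes of CD45+ cells; bars are means over tumor samples with at least 20 cells of the class, points are the single stages with exact 95% Poisson intervals. Fcgr2b and Fcgrt peak in border macrophage-like cells, with stage means of 715 and 489, and Fcgrt is near 0 in neutrophil-like cells.

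Fcgr1 stood at 267, 260 and 233 CPM in early, medium and late microglia-like cells (254 ± 17.7, SD, n = 3). The next class was border or perivascular macrophage-like cells, with 209, 250 and 199.6, and the ranges of the 2 classes overlapped. Within the first run the highest mean of Fcgr1 was that of border or perivascular macrophage-like cells. Macrophage or monocyte-like cells held 179, 226 and 147, just below the microglial range. In neutrophil-like (47.1 ± 37.4), dendritic cell-like (49.9 ± 12.4) and T cell-like cells (55.6 ± 13.3) its ranges overlapped. Of the T cell-like Fcgr1 UMIs, 110 (145 CPM) were in 304 cells of clusters that also held the macrophage gene C1qa at 4669 CPM. The other 512 T cell-like cells held 6 (5.31 CPM).

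Fcgr3 followed nearly the same order. Its levels were 1066, 883 and 901 in microglia-like cells, 880 early, 753 medium and 708 late in border or perivascular macrophage-like cells, and 724, 614 and 918 in macrophage or monocyte-like cells. The range of the last class overlapped both others, whereas border or perivascular macrophage-like cells lay below microglia-like cells, the nearest samples being 880 and 883. Dendritic cell-like cells held 159, 97.8 and 313, beside 692, 767 and 1126 of C1qa. Neutrophil-like cells held 715, 341 and 533, beside 1465, 513 and 892 of the macrophage gene C1qa, and the Clec4d/Hdc-led cluster, with Fcgr3 at 805 CPM against 324 in the Ltf/Lcn2-led cluster, made up 73.6% of them early, 17.3% medium and 33.3% late. That cluster held C1qa at 2297 CPM against 334, and without it only the medium sample kept 20 neutrophil-like cells, with Fcgr3 at 289. Over 23 sums of class and sample, Fcgr1 and Fcgr3 had a Pearson r of 0.90 on the log2(CPM + 10) scale, the highest of the 15 pairs of members, and Fcgr4 and Fcgrt the lowest at 0.097. The sums share libraries and tumor samples, and these values are descriptions.

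Fcer1g had more UMIs than any other member in each of the myeloid classes; inDrop counts the ends of molecules, so UMIs of different genes are not scaled by length. It stood at 1241, 1270.4 and 1208 in microglia-like cells, at 1619, 1516 and 1349 in macrophage or monocyte-like cells and at 1674, 1631 and 1488 in border or perivascular macrophage-like cells. Its spread between stages in microglia-like cells was 31.2 CPM (SD). Neutrophil-like cells held 1129 ± 80.8 and dendritic cell-like cells 551 ± 131. In microglia-like cells 0.818 Fcgr3 UMIs (95% interval 0.799 to 0.838) were counted per Fcer1g UMI, against 0.498 (0.479 to 0.517) in macrophage or monocyte-like and 0.379 (0.338 to 0.424) in neutrophil-like cells. By stage it was 0.859, 0.695 and 0.746 in microglia-like, 0.447 (0.388 to 0.514), 0.405 and 0.680 in macrophage or monocyte-like and 0.636 (0.492 to 0.819), 0.324 and 0.440 in neutrophil-like cells, so the order of the last pair turned in the early sample.

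Fcgr2b was highest in the macrophages of the brain borders. Its level in border or perivascular macrophage-like cells was 634 early, 551 medium and 959 late, and no sample of any other class reached the lowest of these. Macrophage or monocyte-like cells held 182, 168 and 469, microglia-like cells 195, 218 and 260.3, and neutrophil-like cells 82.5 ± 21.6. After each cell was thinned to 1000 UMIs, 39.3% of border or perivascular macrophage-like cells had an Fcgr2b UMI (56.3% unthinned), against 16.5% of microglia-like cells (25.8% unthinned). In NK cell-like cells, taken as cells that should lack the gene, 0 of 55 thinned cells had one, which allows a share of up to 5.45% (1.67% unthinned). The median depths were 1997, 1897 and 1589 UMIs. Fcgr2b and Fcgr3 share 233 stretches of 31 bases, which is 7.04% of those of Fcgr2b and 17.7% of those of Fcgr3, but none in their last 500 bases, and counts along the shared part could be split between them.

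Fcgrt, the recycling receptor, set border or perivascular macrophage-like cells apart from the other myeloid classes. It stood at 400.4, 422 and 644 in border or perivascular macrophage-like cells and at 215, 92.7 and 254 in dendritic cell-like cells. Macrophage or monocyte-like cells held 76.1, 79.6 and 108 and microglia-like cells 59.0, 71.5 and 100.5. The medium dendritic cell-like value lay within the ranges of both of these classes. In neutrophil-like cells 6 UMIs were found in the medium sample and 0 in the early and late samples. Fcgrt is overlapped by the antisense gene Gm45669 and Fcgr2b by Gm38204, and the sources used here do not state whether counting used strand.

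Fcgr4, an activating receptor, was a gene of low counts. Macrophage or monocyte-like cells held 130, 136 and 66.6 CPM and neutrophil-like cells 111, 34.2 and 93.2, so these 2 classes were not separated. Microglia-like cells held 21.4, 61.1 and 37.8. The class with the highest mean changed to neutrophil-like cells within the third run and without the medium sample, and to border or perivascular macrophage-like cells within the first run. Fcrl1 had 40 UMIs in CD45+ cells: 4 were in 77 B cell-like cells (23.1 CPM, 95% interval 6.29 to 59.1), 6 in 92 plasma cell-like cells (16.1, 5.90 to 35.0) and 9 in 5839 microglia-like cells.

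Class differences were tested in 1 edgeR quasi-likelihood fit over 20 sums blocked by tumor sample (two-sided, adjusted over 9444 genes), and the comparisons share classes and are not independent. Macrophage or monocyte-like over microglia-like cells, 2 of 6 tested members were higher (15.0% of all genes) and 0 were lower (6.53%). Fcgr4 was 3.24-fold higher (log2 fold change 1.70 ± 0.41 SE, n = 3, adjusted p = 0.0044) and Fcer1g 1.40-fold (0.48 ± 0.17, adjusted p = 0.039), both in 3 of 3 samples. Fcgr1 (-0.25), Fcgr3 (-0.14), Fcgr2b (0.37) and Fcgrt (0.44) did not pass, with adjusted p from 0.24 to 0.70. The call depended on the fit: DESeq2, a class given to each cell, and the fit without the early sample called 0 members, and over all alternatives the adjusted p of Fcgr4 ran from 1.4e-05 to 0.083 and that of Fcer1g from 0.0086 to 0.72.

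Border or perivascular macrophage-like over microglia-like cells, 2 of 6 members were higher and 0 lower, beside 8.78% and 5.60% of all genes. Fcgrt was 6.61-fold higher (2.72 ± 0.26, adjusted p = 2.0e-09, edgeR) and above microglia in 3 of 3 samples. Fcgr2b was 3.18-fold higher (1.67 ± 0.43, adjusted p = 0.015, edgeR), also in 3 of 3 samples, but lost its call without the early or without the late sample, with a highest adjusted p of 0.19. The others differed by at most 0.48 on the log2 scale and did not pass. Of 20 activating signal genes, 2 were higher (Vav3 and Fyn) and 3 lower, among them Blnk (2.02-fold lower), and Inpp5d, the phosphatase that Fcgr2b recruits, was 2.27-fold lower (adjusted p = 0.00049). Vav3 had 0 UMIs in microglia-like cells and 15 in border or perivascular macrophage-like cells, so its fitted fold is not given.

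In macrophage or monocyte-like against microglia-like cells, 5 of 20 activating signal genes were higher and 2 lower, beside 15.0% and 6.53% of all genes, with Fgr 7.93-fold and Fyn 6.05-fold higher by the edgeR fit. Inpp5d was 1.95-fold lower there too, at 178 against 394 CPM in the pooled cells. Dok2, an inhibitory adaptor, was 10.9-fold higher, from a pooled level of 1.10 in microglia-like cells.

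Neutrophil-like cells carried fewer of the receptors than macrophage or monocyte-like cells. Of 6 tested members 4 were lower (20.2% of all genes) and 0 higher (15.1%). Fcgrt had a log2 fold change of -3.70 ± 0.50 (adjusted p = 4.9e-07), and Fcgr1 was 4.78-fold lower (-2.26 ± 0.35, adjusted p = 5.3e-06), Fcgr2b 2.92-fold (-1.55 ± 0.52, adjusted p = 0.029) and Fcgr3 1.47-fold (-0.55 ± 0.22, adjusted p = 0.045). Fcgr4 (-0.84) and Fcer1g (-0.40) did not pass. All 4 were lower in 3 of 3 samples, but Fcgr2b lost its call without the early or without the late sample and Fcgr3 without any 1 of the samples, with highest adjusted p of 0.30 and 0.84 over all alternatives. The values of all 6 members include the C1qa-rich Clec4d/Hdc-led cluster. Without it 14 early, 210 medium and 18 late neutrophil-like cells remained, too few early and late for a fit. Among the partners Rac2, a GTPase of the neutrophil oxidase, was 4.40-fold and Fgr 3.52-fold higher, and Lat2 was lower by a log2 fold change of -3.58.

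Dendritic cell-like over macrophage or monocyte-like cells, 4 of 6 members were lower (5.88% of all genes). By edgeR, Fcgr4 was 6.32-fold lower (adjusted p = 0.0066), Fcgr3 4.45-fold (adjusted p = 7.4e-08), Fcgr1 3.85-fold (adjusted p = 7.9e-05) and Fcer1g 2.84-fold (adjusted p = 3.5e-07). Fcgrt was 1.94-fold higher (adjusted p = 0.025, edgeR; 5.18% of all genes), a call that was lost under 8 alternatives. Fcgr2b differed by -0.31 ± 0.47 and did not pass. With a class given to each cell from its own markers, 0 members were lower. Of 20 activating signal genes, 2 were higher and 5 lower, beside 5.18% and 5.88% of all genes. The largest folds among those called were Vav3 (4.62-fold higher), Lcp2 (3.47-fold lower) and Tyrobp (2.83-fold lower).

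Among dendritic cell-like cells Fcgr2b varied with stage. It stood at 359 CPM early (70 UMIs), 30.9 medium (12 UMIs) and 358 late (48 UMIs). By library with at least 20 cells of the class, the early values were 389 and 501, the medium values 31.1, 25.6, 11.6 and 61.3, and the late values 247 and 508, so that no medium library reached any early or late library. The makeup of the class moved with stage: Cd209a, a marker of conventional type 2 dendritic cells, stood at 287, 36.0 and 239, whereas Xcr1 (conventional type 1) stood at 220.5, 548 and 246 and Ccr7 (migratory) at 251, 1125 and 172. Their part in the Fcgr2b values was not tested.

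The ratio of the inhibitory to the activating low-affinity receptor was taken as Fcgr2b UMIs per Fcgr3 UMI, in which depth cancels. In microglia-like cells it was 0.183 early (95% interval 0.174 to 0.193), 0.247 medium (0.218 to 0.278) and 0.289 late (0.262 to 0.319). In macrophage or monocyte-like cells it was 0.251 (0.192 to 0.325), 0.273 (0.247 to 0.301) and 0.511 (0.471 to 0.554); with a class given to each cell from its own markers these became 0.458, 0.322 and 0.594, so the order of early and medium turned. In border or perivascular macrophage-like cells it was 0.720, 0.731 and 1.35 (1.05 to 1.75), so the late value was the highest in each of these 3 classes. In neutrophil-like cells it was 0.107 (0.0517 to 0.199), 0.190 (0.139 to 0.256) and 0.200 (0.0809 to 0.433), with overlapping intervals. Dendritic cell-like cells had another order, with the early value highest at 2.26 (1.46 to 3.57), the medium lowest at 0.316 (0.150 to 0.617) and the late at 1.14 (0.740 to 1.77). Intervals and floors cover counting error only, and with 1 tumor sample per stage the stages could not be tested.

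In macrophage or monocyte-like cells the largest difference between stages was that of Fcgr2b. Its libraries with at least 20 such cells held 187, 188 and 185 CPM early, 169, 151, 199.5 and 168 medium, and 681, 457 and 460.1 late, so that every late library lay above every other. The late level was 2.80-fold the medium level (log2 ratio 1.48, 95% interval 1.33 to 1.64) and 2.57-fold the early level (1.36, 1.03 to 1.73). The ratio of late to medium was 1.77, 1.45 and 1.45 on the log2 scale within the 3 runs, and 1.29 with TMM factors. Of the 6 members with enough UMIs, Fcgr2b was at least 2-fold higher (10.1% of 13817 genes) and Fcgr4 at least 2-fold lower (7.25%).

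Fcgr4 went the other way. Its macrophage or monocyte-like libraries held 158, 123, 172 and 114 medium and 81.4, 73.8 and 56.1 late, without overlap, and the early libraries 101, 229 and 81.4, on 11 to 28 UMIs each. The late level was below the medium level by a log2 ratio of -1.03 (-1.33 to -0.75). For the other members the late over medium log2 ratios were 0.58 for Fcgr3 (0.49 to 0.67), 0.44 for Fcgrt (0.17 to 0.71), -0.17 for Fcer1g (-0.24 to -0.10) and -0.62 for Fcgr1 (-0.83 to -0.42), against a median of 0.18 over all genes. For late over early, 1 of 6 members was at least 2-fold higher (Fcgr2b, beside 15.1% of 11692 genes) and 0 lower (10.5%), and for medium over early 0 were higher or lower (11.3% and 12.5% of 12606 genes).

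**Figure D2:**
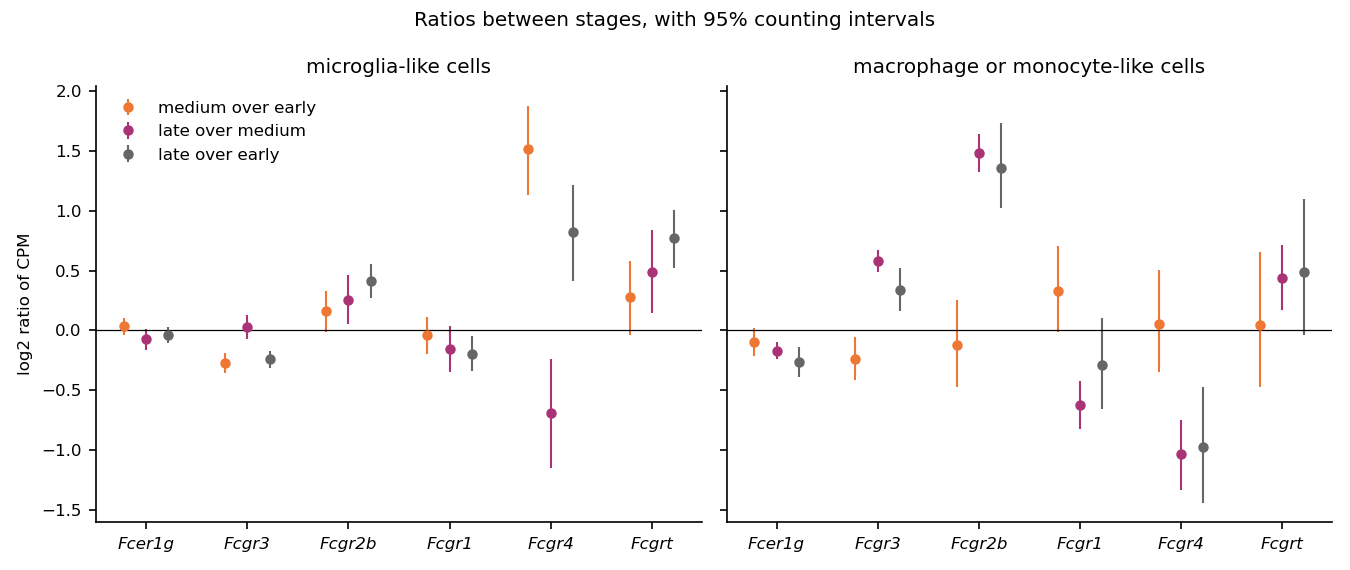
Log2 ratio of CPM between stages for 6 members in microglia-like (left) and macrophage or monocyte-like cells (right); points are ratios and bars exact 95% counting intervals, and each stage is 1 tumor sample. In macrophage or monocyte-like cells Fcgr2b lies at 1.48 and Fcgr4 at -1.03 for late over medium, and in microglia-like cells Fcgr4 lies at 1.51 for medium over early.

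The macrophage or monocyte-like class changed its makeup between stages. The Cxcl9-led cluster held 36, 1015 and 7 cells early, medium and late, the Ly6i/Ms4a4c-led cluster 72, 215 and 31, the Spp1/Igf1-led cluster 57, 143 and 432 and the Rnase2a/Retnla-led cluster 2, 2 and 163. Within the Spp1/Igf1-led cluster Fcgr2b stood at 215, 288 and 419 CPM, and within the Ly6i/Ms4a4c-led cluster at 163, 233 and 909 (73 UMIs late). With only the Spp1/Igf1-led and Ly6i/Ms4a4c-led clusters, the 2 with at least 20 cells at both stages, weighted alike, the late over medium log2 ratio of Fcgr2b was 1.35 and that of Fcgr4 -0.75, while that of Fcgr3 was 0.11 in place of 0.58. The Ly6i/Ms4a4c-led cluster made up 4.90% of the late class and the Spp1/Igf1-led one 68.2%, so this weighting departs from the makeup of the class. The Rnase2a/Retnla-led cluster, 25.8% of the late class, had no part in it. Fcgr4 was higher in the Cxcl9-led (147 medium) and Ly6i/Ms4a4c-led (142 medium) than in the Spp1/Igf1-led cluster (63.6 medium), and Fcgr3 was highest in the last (886 medium).

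**Figure D3:**
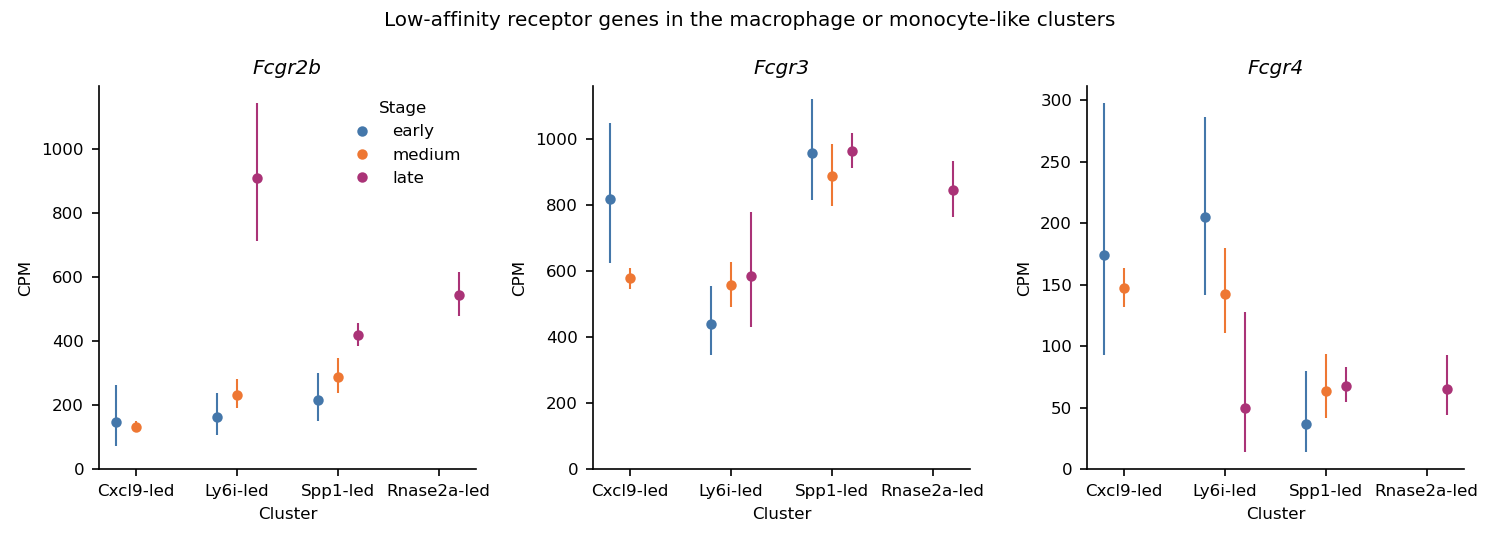
Level of Fcgr2b, Fcgr3 and Fcgr4 (CPM) in the 4 macrophage or monocyte-like clusters by stage; points are sums over at least 20 cells with exact 95% Poisson intervals, and each cluster is called by its leading gene. Late Fcgr2b is above medium in the Ly6i-led (909 against 233) and Spp1-led (419 against 288) clusters.

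In microglia-like cells the largest difference between stages was that of Fcgr4. Its libraries held 14.5 to 35.6 CPM in the 4 early libraries, 79.1, 48.2, 64.4 and 69.5 medium, and 44.4 and 31.3 late, so that the medium libraries lay above all others. Medium was 2.85-fold early (log2 ratio 1.51, 1.13 to 1.88; at least 2-fold higher were 1 of 6 members and 5.49% of 15987 genes, and at least 2-fold lower 0 members and 8.09% of genes), with 1.10, 1.88 and 1.46 within the 3 runs. Among microglia-like clusters Fcgr4 was highest in the one led by H2-Oa and Gbp2, an interferon-inducible gene, at 67.3 (53.5 to 83.5), against 17.1 to 36.0 in the other 5. That cluster made up 6.64% of early and 32.8% of medium microglia-like cells, and with clusters weighted alike the ratio was 1.02.

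Fcgrt in microglia-like cells stood at 99.1 and 101 in the late libraries against 84.5, 69.8, 43.2 and 56.7 in the early ones, a late over early log2 ratio of 0.77 (0.52 to 1.01). Fcgr2b gave 0.42 (0.27 to 0.56), Fcgr1 -0.19 (-0.34 to -0.05), Fcgr3 -0.24 (-0.32 to -0.17) and Fcer1g -0.04 (-0.10 to 0.03), against a median of 0.11 over all genes. No member was at least 2-fold different between late and early microglia-like cells, where 5.98% of 16161 genes were at least 2-fold higher and 4.91% lower, nor between late and medium ones, where 9.02% of 13211 genes were higher and 4.09% lower. In border or perivascular macrophage-like cells no member was at least 2-fold different between medium and early (10.6% of 8463 genes higher and 11.7% lower), and the largest ratio was that of Fcgr4 (0.92, 0.07 to 1.77, on 26 and 25 UMIs).

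In lymphoid classes, Fcer1g and Fcgr3 parted. NK cell-like cells held Fcer1g at 731 CPM early and 609 medium, with 4 and 1 UMIs of Fcgr3, and over all 60 cells 77 UMIs of Fcer1g and 108 of Tyrobp stood beside 5 of Fcgr3 and 6 of C1qa, a complement gene of microglia and macrophages. Fcgr3 is the IgG receptor known from mouse NK cells. In plasma cell-like cells Fcer1g had 58 UMIs (155 CPM, 118 to 201) beside 2 of Tyrobp and 1 of Fcgr3, a ratio of Fcer1g to Tyrobp of 29.0 (7.67 to 245) against 0.949 in microglia-like cells. In 60 plasmacytoid dendritic cell-like cells the ratio was 0.171 (0.130 to 0.221). B cell-like cells held 35 UMIs of Fcer1g and 9 of Fcgr2b, the Fc receptor of B cells, in 77 cells (51.9 CPM, 23.7 to 98.5) beside 17 of C1qa. Only 4 of these cells had an Fcgr2b UMI, and the medium sample, with 61 of the cells, held 3 of the 9 UMIs (21.1 CPM, 4.36 to 61.8). With clusters as classes, B cell-like cells could be tested in no comparison because only the medium sample held 20 of them.

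T cell-like cells were not uniform. The 304 cells of the Xcl1/Trbc2-led and Ifng/Gimap4-led clusters held Fcgr3 at 564 and Fcer1g at 775 CPM together with C1qa at 4669, whereas the 512 cells of the other T cell-like clusters held 20.3, 70.8 and 123. One of the latter, with 119 cells, met the T cell markers but was led by the pre-B genes Vpreb3 (306 CPM) and Vpreb1 (245), held Cd79a at 140 and goes against its name. Without it the 393 remaining cells held Fcgr3 at 28.2, Fcer1g at 84.6 and C1qa at 141, and of the 5 Fcrl1 UMIs of the 512 cells it held 3. All 10 microglial markers were above 0 in the first pair of clusters, at a summed 4916 and 13281 CPM, against 24512 in microglia-like cells and 420 with 9 of 10 markers in the other T cell-like clusters. Between medium and early T cell-like cells 1 of 6 members was at least 2-fold higher (Fcgr4, on 36 and 5 UMIs; 11.8% of 11204 genes) and 0 lower (9.35%). Of the Fcgr4 UMIs of the class over all stages, 45 were in the C1qa-rich pair of clusters and 1 in the others. The Xcl1/Trbc2-led cluster made up 5.56% of 288 early and 33.6% of 446 medium T cell-like cells, and the Ifng/Gimap4-led cluster 24.7% and 9.64%, so the makeup of the class moved with this ratio. The log2 ratio was 1.94 (0.70 to 3.76), and 1.64 over the 5 clusters with at least 20 cells at both stages weighted alike, which leave out the Xcl1/Trbc2-led one. Outside the Ifng/Gimap4-led cluster (71 early and 43 medium cells), those 5 clusters held 1 Fcgr4 UMI over all stages.

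**Figure D4:**
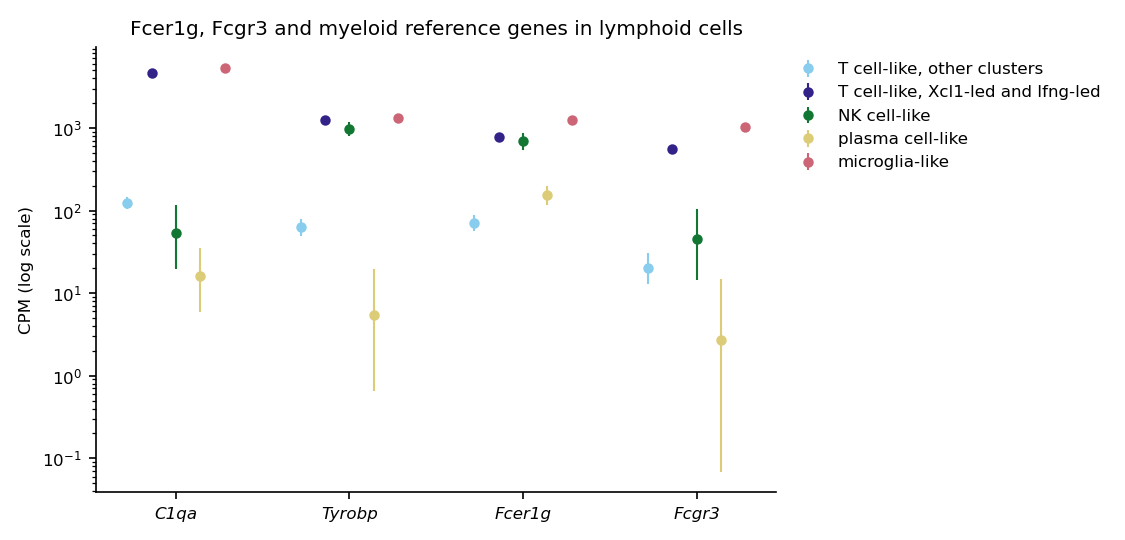
C1qa, Tyrobp, Fcer1g and Fcgr3 (CPM, log axis) in T cell-like clusters of 2 kinds, NK cell-like, plasma cell-like and microglia-like cells of the CD45+ sort; points are pooled sums with exact 95% Poisson intervals. NK cell-like cells sit at 690.4 for Fcer1g and 44.8 for Fcgr3, and plasma cell-like cells at 155 for Fcer1g and 5.36 for Tyrobp.

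In the test of NK cell-like (n = 2) over T cell-like cells (n = 3), 1 of 6 members was lower (2.52% of all genes) and 0 higher (0.318%), namely Fcgr3 at 7.38-fold lower (adjusted p = 0.00030, edgeR). Without the C1qa-rich clusters, an alternative chosen after seeing the data, Fcgr3 had a log2 fold change of 0.89 ± 0.76 (adjusted p = 0.62) and Fcer1g was 7.58-fold higher in NK cell-like cells (2.92 ± 0.24, adjusted p = 3.2e-09), so the sign of Fcgr3 rested on those clusters. The members had no other call there. Without the cluster led by pre-B genes, also chosen after seeing the data, Fcgr3 was 9.38-fold lower (adjusted p = 3.7e-05, edgeR) and Fcgr1 was called too, 11.5-fold lower (adjusted p = 0.031; 0.072 with the cluster). With both kinds of cluster left out, Fcgr3 had a log2 fold change of 0.28 ± 0.69 (adjusted p = 0.89) and Fcer1g was 5.53-fold higher (adjusted p = 1.7e-07). Fcgr1 was then not called, at -0.11 ± 1.56. Without the C1qa-rich clusters alone it stood at 0.49 ± 1.56 (adjusted p = 0.91, edgeR), so its call too rested on those clusters. Free RNA and doublets were not tested as sources of the myeloid UMIs.

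Outside the CD45+ sort, most receptor UMIs were those of residual microglia. Microglia-like cells held 82.1% of the 1082 Fcer1g UMIs, 84.2% of the 918 of Fcgr3 and 82.5% of the 280 of Fcgr1 in CD45- libraries. Fcgr2b and Fcgrt were the exceptions. Of 936 CD45- Fcgr2b UMIs, 575 (61.4%) came from a cluster led by Fbln2 and Thbs2, which no marker list named, and 14.7% from microglia-like cells.

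In CD45- libraries of the late tumor this cluster had 529 cells, which held 540 Fcgr2b UMIs beside 5 of Fcgr3 and 16 of C1qa. The 4 late libraries stood at 132, 138, 154 and 121 CPM of Fcgr2b, and 200 of the cells (37.8%, 33.7 to 42.1 by the exact method) had a UMI at a median depth of 6250. In medium libraries the cluster held 14 to 24 cells each and 26.8 to 94.7 CPM. Neuron-like cells of the CD45- sort held Fcgr2b at 42.1 ± 19.2 (SD, n = 3), oligodendrocyte-like cells at 4.26 ± 2.45 and glioma or oligodendrocyte progenitor-like cells at 7.34 ± 4.16. Whether the Fbln2/Thbs2-led cluster holds tumor cells was not tested, so the glioma or oligodendrocyte progenitor-like value need not cover all tumor cells. Fcgr2b is overlapped by the antisense gene Gm38204, whose part in these counts was not tested.

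Fcgrt, the neonatal Fc receptor, was carried by vessel and stromal cells. In the CD45- sort, endothelial-like cells held 360 CPM early, 472 medium and 263 late, fibroblast-like cells 168, 183 and 243 and choroid plexus epithelial-like cells 36.4 ± 14.9. The endothelial level of 365 ± 104 (SD, n = 3) stood beside 489 ± 135 in border or perivascular macrophage-like cells of the CD45+ sort, and oligodendrocyte-like cells held 1.44 ± 0.31. Endothelial-like cells accounted for 26.0% of the 846 CD45- Fcgrt UMIs, the Fbln2/Thbs2-led cluster for 21.5% and fibroblast-like cells for 19.6%.

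**Figure D5:**
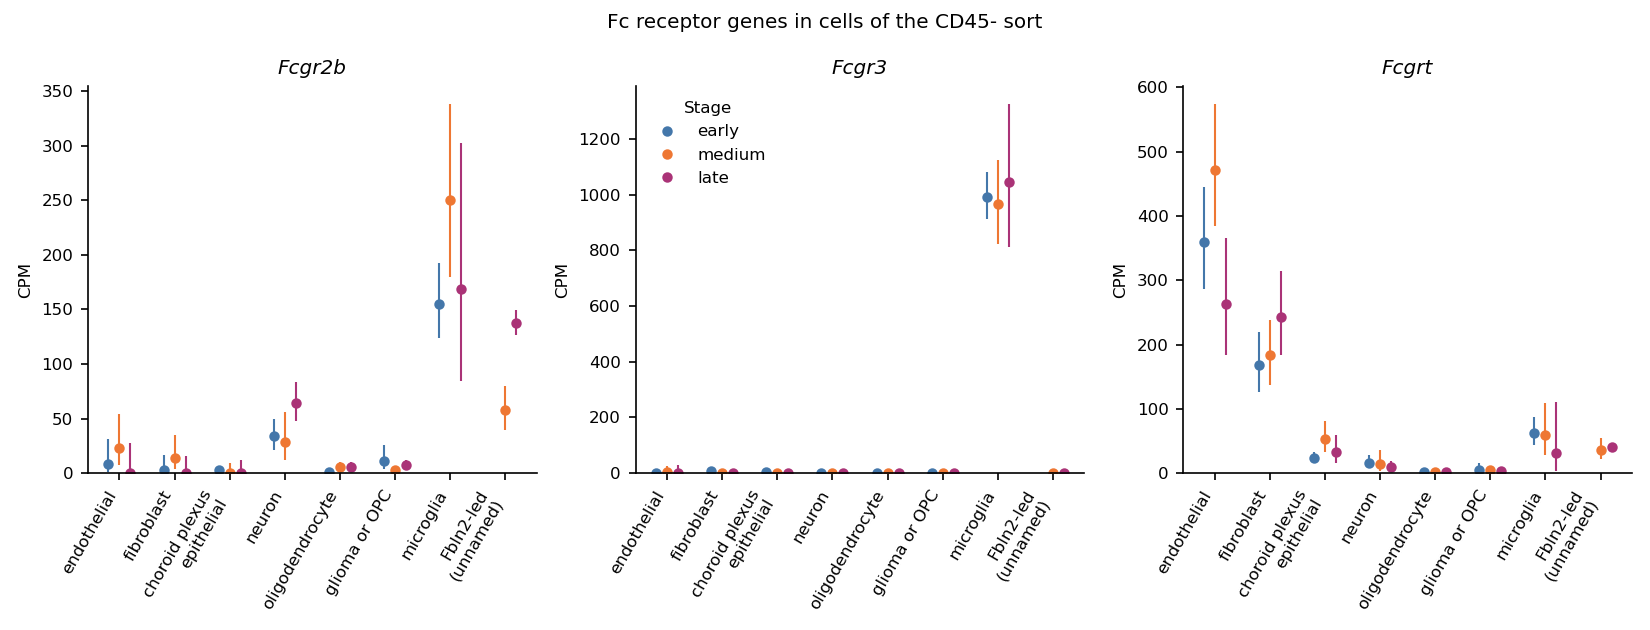
Fcgr2b, Fcgr3 and Fcgrt (CPM) in classes of the CD45- sort by stage, with exact 95% Poisson intervals; OPC is oligodendrocyte progenitor. Of the classes shown, Fcgr3 is highest in microglia-like cells (macrophage or monocyte-like cells, 23 in the medium sample alone, are not shown and stood at 974 CPM), Fcgr2b also appears in the Fbln2-led cluster, and Fcgrt is highest in endothelial-like cells (472 medium).

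The genes most like each member were named over the same 23 sums and 10735 genes. For Fcgr1 they were the complement genes C1qc (r = 0.96) and C1qb (0.96) and the kinase Camk1 (0.96), and for Fcgr3 they included Tnfrsf21 (0.93) and Glul (0.93). For Fcgr2b they were Mt1 (0.91), Slc35f6 (0.90) and Apold1 (0.90), and for Fcgrt Tcp11l1 (0.90), the sterol hydroxylase gene Cyp27a1 (0.88) and Pid1 (0.86). For Fcer1g they were Cebpb (0.90), Rnf130 (0.88) and Timp2 (0.86). Fcgr4 had the weakest best match, Slc11a1, a metal transporter gene of phagocytes (0.86), followed by Lst1 and Arl11.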

How the data were processed

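Cells sorted from mouse glioblastomas were measured by inDrop in 24 libraries over 3 sequencing runs. The authors aligned reads with RapMap in bcbio-nextgen to the mouse transcriptome (Ensembl annotation of GRCm38; mm10 in the submitters' processing notes) and deposited raw UMI counts per gene and cell; their methods name removal of ambient RNA and doublets without saying whether it preceded the table. Of 20811 deposited cells, 17894 passed limits of 500 UMIs, 500 genes and 20% mitochondrial UMIs, and 17781 were kept after Scrublet called 113 doublets. Cells were clustered with scanpy 1.11.5 and leidenalg 0.10.2 (2000 variable genes, 40 components, resolution 2, chosen after seeing the clusters), leaving out 57 member and list genes, and 49 clusters were named from markers; 8 stayed unnamed.

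Counts were summed per tumor sample and sort or class (at least 20 cells) and tested with edgeR 4.0.16 (quasi-likelihood, TMM, tumor sample as block, adjusted p threshold 0.05) in R 4.3.3; DESeq2 1.42.0 was an alternative. Both sorts of a stage carry the same tumor number, and their deviations correlated at 0.38, 0.28 and 0.31, against at most 0.012 with another sample. Each stage is 1 sample and deviations were taken from the mean over samples. These values therefore cannot tell a shared animal from a shared stage. Levels are CPM with exact Poisson intervals, computed with scipy 1.17.1. Ratios between stages needed 100 cells per stage and class and 10 UMIs, with a prior count of 0.5. The p-values measure only the spread between these samples. The methods count more early and late tumor samples than the tumor numbers separate, and which libraries belong to which is not given in the sources used here. The scripts were tested on simulated data with 200 changed genes per comparison. Of 2-fold changes the fit recovered 0% for CD45+ over CD45- and 0% for NK cell-like over T cell-like cells. For macrophage or monocyte-like over microglia-like cells it recovered 16.5%. Of 4-fold changes it recovered 48.65%, 13.2% and 94.5% in the same order. A member that did not pass could therefore still differ by 2-fold. The simulation changed 200 of 18047 genes for CD45+ over CD45-, where 46.1% of genes were called in the data. It also held no effect of the tumor sample, so the rates of the real tests may differ from these. All 7 members were named, with up to 3 genes per role of largest fold among those called, and the 3 genes most like each member (pseudocount of 10, at least 200 UMIs). The members and lists were chosen with earlier results of these data known. Scalings, filters, classes, runs and left-out samples were varied, and promoter sequences are from RefSeq (GRCm38.p6), matched by symbol for 7 of 7 members. An allele of the mice and 1 of the genes most like Fcgr3 are not reported here.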

Additional observations from a re-analysis of the deposited data

Results flagged for a closer look

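Fcgr3 and Fcgr4 moved in opposite directions in 2 classes between the early and the late tumor. The late over early log2 ratio of Fcgr3 was -0.24 in the microglia-like class and 0.34 in the macrophage or monocyte-like class. That of Fcgr4 was 0.82 in the former and -0.97 in the latter. With 1 tumor sample per stage the difference between the classes was not tested.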

How the results depend on the processing

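The 6 member calls in CD45+ over CD45- cells became 7, with Fcrl1, under DESeq2, without the filter and without the early sample. Macrophage or monocyte-like over microglia-like, the 2 higher calls became 0 under DESeq2 and under classes set cell by cell, and 1 without TMM factors, without the filter on low counts, without the replicate block and with the highest doublet scores removed, and ranged from 0 to 1 when a sample was left out. Border or perivascular macrophage-like over microglia-like, the 2 higher calls became 1 without the early or the late sample, and the 4 lower calls of neutrophil-like cells became 2. For dendritic cell-like cells the 1 higher call became 0 under DESeq2, no filter, no replicate block, only the 2 classes compared, the highest doublet scores removed, cell-by-cell classes, and without the early or the late sample, and the 4 lower calls became 0 with cell-by-cell classes. NK cell-like over T cell-like, the 1 lower call became 0 with only the 2 classes compared, with cell-by-cell classes, and with clusters high in C1qa left out, which gave 1 higher call, as did leaving out these and the cluster led by pre-B genes (0 lower calls), while leaving out the latter alone gave 2 lower calls; the log2 fold change of Fcgr3 turned to 0.0532 with classes set cell by cell, to 0.89 without the C1qa-high clusters and to 0.28 without both kinds. Without the replicate block no other call count moved past 1.5 times.

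The Fcgr2b to Fcgr3 ratio in microglia-like cells was 0.231 early, 0.288 medium within run 1, 0.171 early and 0.232 late within run 2, and 0.285 medium and 0.342 late within run 3. In macrophage or monocyte-like cells it was 0.457 late within run 2, 0.320 medium and 0.577 late within run 3, and 0.458 early, 0.322 medium and 0.594 late under cell-by-cell classes. The median log2 ratio of the members was 0.0726 for late over early microglia-like cells with TMM factors. For late over medium macrophage or monocyte-like cells (0.14) it was -0.0815 within run 1, -0.0554 with TMM factors, 0.28 with cell-by-cell classes and 0.27 for every deposited cell. For medium over early border or perivascular macrophage-like cells (0.02) both of the last settings gave -0.17. Fcgr3 in medium over early T cell-like cells turned from -0.47 to 0.0651 for every deposited cell and 0.0205 with cell-by-cell classes. The causes were not tested. B cell-like over T cell-like cells could not be tested with clusters as classes. Yields of 17 to 136 cells in some CD45+ libraries limit values by library.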
